A study of Mus musculus with 30 samples.

Results

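Old and young hearts were compared at ZT10, 10 h after lights on in the 12 h light and 12 h dark cycle, late in the rest phase of a mouse. The comparison holds 6 hearts, 3 from old and 3 from young female mice, chosen by the age, time and treatment in their labels, out of 18 hearts in 6 groups and 30 samples in the series. Each heart came from 1 mouse and gave 1 mRNA library. Old mice were 12 months old (1y in the labels) and young mice 2 months (8w). Both groups drank plain water and ate standard chow, and no group carried a transgene or a deletion. The strain is C57BL6 in the labels and a mixed C57Bl6J/N background in the study's methods. The hearts read beside them below are old and young hearts on water at ZT22, late in the dark phase, and old hearts at ZT10 whose drinking water held NR (nicotinamide riboside, a precursor of NAD+) at 3 g per litre from the age of 2 months. The sample identifiers of old and young hearts do not interleave and their meaning is not given, so a difference of cohort or date cannot be told apart from age.

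The question was what age changed in the heart at the time of day when the clock activator Bmal1 is low. In the mammalian clock, BMAL1 and CLOCK bind E-boxes and switch on their own repressors, the PER and CRY proteins, and the REV-ERB receptors, which in turn shut off Bmal1 through ROR elements. A side loop of PAR bZIP activators (DBP, TEF, HLF) and the repressor NFIL3 acts through D-boxes. Whole heart RNA mixes cardiomyocytes, which hold most of the RNA, with endothelial cells, fibroblasts, mural cells and macrophages, and fewer cells of a type and less RNA per cell cannot be told apart in it.

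Of 15443 genes tested, 906 differed between old and young hearts at ZT10 (5.87%, edgeR's quasi-likelihood test, adjusted p under 0.05), 455 higher (2.95%) and 451 lower (2.92%) in old hearts. The median absolute log2 fold change was 0.13 over all genes tested and 0.52 over those called. An unadjusted p under 0.05 was found for 3049 of the 15443 genes, called or not. Large changes were mostly increases, with 130 called genes above a log2 fold change of 1 and 47 below -1. The groups of 3 did not overlap for 897 of the called genes and for 27.8% of all genes tested. A gene's values below are TMM-normalised read counts, in the order of hearts 1, 2 and 3 of a group, and can be compared between hearts but not between genes. The totals per heart ran from 4935128 to 5905919 counts in old and from 4595775 to 5450024 in young hearts. Fits without old 1, 2 or 3 called 550, 543 and 517 genes, and fits without young 1, 2 or 3 called 614, 533 and 478. Of the 906 genes, 306 (33.8%) kept the call in each of the 6 fits that left out 1 heart, 161 higher and 145 lower, and a named gene is one of these unless its paragraph says otherwise. Called genes higher in old had a median transcript GC content of 49.5%, those lower 52.9% and all genes tested 50.5%. The plot of every gene tested shows the calls over the whole range of read counts.

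**Figure D1:**
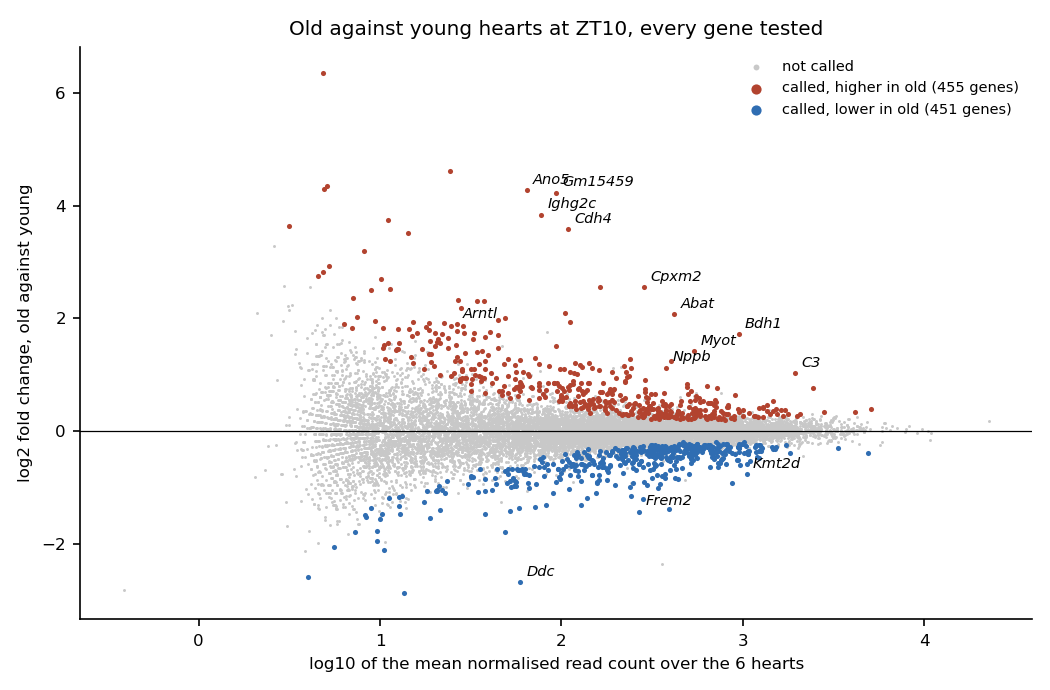
Each point is a gene, with the log10 of its mean normalised read count over the 6 hearts on the x axis and its log2 fold change, old against young at ZT10, on the y axis. Red points (455 genes) were called higher and blue points (451 genes) lower in old hearts, and the red points reach further from 0 (130 above 1) than the blue (47 below -1).

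Among the largest increases were genes with few reads in young hearts. Ano5, which encodes anoctamin 5, a membrane protein mutated in limb-girdle muscular dystrophy (chr7:51511029-51598709, GRCm38), read 112, 153 and 101 in old and 5.45, 7.11 and 6.16 in young hearts, and every old heart lay far above every young one (log2 fold change 4.27 ± 0.48 (SE), adjusted p = 1.27e-05). Cdh4, the adhesion molecule R-cadherin (chr2:179442431-179899373), read 252, 165 and 189 in old and 13.1, 17.3 and 19.7 in young hearts (log2 fold change 3.59 ± 0.25 (SE), adjusted p = 6.88e-09). Ighg2c, the constant region of the antibody IgG2c, read 165, 143 and 125 against 14.2, 5.08 and 11.1 (log2 fold change 3.84 ± 0.23 (SE), adjusted p = 1.87e-09). Reads mapping alike to near-identical immunoglobulin genes were removed as multimapping, so the counts of Ighg2c are uncertain. A secreted carboxypeptidase-like protein, Cpxm2, read 639.6, 434 and 393 against 112, 64 and 71.4 (log2 fold change 2.56 ± 0.26 (SE), adjusted p = 2.87e-06). Also higher were 2 enzymes. Abat, which breaks down the neurotransmitter GABA, read 668, 713 and 651 against 194, 145 and 144 (log2 fold change 2.07 ± 0.13 (SE), adjusted p = 2.31e-09), and Cds1, which makes the lipid intermediate CDP-diacylglycerol, read 188, 165 and 178 against 47.9, 38.6 and 52.9 (log2 fold change 1.93 ± 0.14 (SE), adjusted p = 1.64e-08). In both the lowest old heart lay far above the highest young one. Prune2, which holds a BCH domain, was among the genes with the largest rise in read number, with 3515, 2838 and 2878 in old and 1836, 1770.4 and 1803 in young hearts (log2 fold change 0.77, adjusted p = 0.000307). Gm15459 (log2 fold change 4.23, adjusted p = 0.00632) is annotated as a processed pseudogene, so its counts are uncertain.

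On the other side Ddc, the decarboxylase that makes dopamine and serotonin, read 19.5, 15 and 13.7 in old and 92.6, 123 and 92.3 in young hearts (log2 fold change -2.68 ± 0.26 (SE), adjusted p = 1.99e-06). Drd2, a dopamine receptor, was lower as well, with 27.5, 30.1 and 39.9 against 65.4, 77.2 and 111 (log2 fold change -1.37 ± 0.25 (SE), adjusted p = 0.00231). The ages did not overlap in either gene. Frem2, a basement membrane protein of developing epithelia, read 139.6, 148 and 148 in old and 339.9, 431 and 398 in young hearts (log2 fold change -1.42 ± 0.16 (SE), adjusted p = 9.99e-06). The glutamine transporter Slc38a1 read 183, 166 and 163 against 344, 410.3 and 417 (log2 fold change -1.20 ± 0.18 (SE), adjusted p = 0.000364), and the kinase Wnk4, a regulator of ion transport, 165, 183 and 169 against 331, 331 and 316 (log2 fold change -0.92 ± 0.09 (SE), adjusted p = 1.61e-06). Every old heart was below every young one in these 3 genes.

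In the clock, old hearts at ZT10 had more RNA of the activators Arntl and Clock and less of the repressors Per3, Per1 and Ciart. Over the 4 lists of clock genes, 2 of 4 activators were called higher, 3 of 6 repressors lower, 0 of 5 REV-ERB and ROR receptors in either direction, and of 6 PAR bZIP and DEC factors 1 higher and 2 lower, against 5.87% of all genes. The windows around the start sites of 5 of these genes are shown because they hold the DNA elements that link the genes in the loop. A RefSeq window of 250 bases before to 50 after a start (GRCm38.p6) was found for 16 of the 18 clock genes searched. E-boxes (CACGTG, which reads alike on both strands) stand in the windows of Per1, Ciart, Cry1, Tef and Bhlhe41 and in 7.15% of all 32851 windows. D-boxes (TTATGTAA) stand in the window of Per3 and in 0.938% of all windows, and the ROR element core TAGGTCA in those of Arntl and Nfil3 and in 2.61% of all windows. No window of the 16 held the alternative core TGGGTCA (3.98% of all windows) or the core of the glucocorticoid receptor's element, ACANNNTGT (6.85%). The motifs were searched on both strands and no match overlapped another. The capitals below mark the matches, and for Nfil3, whose match is on the other strand, its reverse complement. For Arntl 30 bases just downstream of a start are given, and for the others the 250 bases before it.
Per3 (chr4:151044666-151044915, minus strand): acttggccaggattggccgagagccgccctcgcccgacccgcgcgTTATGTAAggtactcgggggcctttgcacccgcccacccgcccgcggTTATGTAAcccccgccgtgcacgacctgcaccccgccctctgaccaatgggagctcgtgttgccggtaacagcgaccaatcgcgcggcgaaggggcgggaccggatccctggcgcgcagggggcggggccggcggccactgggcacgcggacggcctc
Ciart (chr3:95882229-95882478, minus strand): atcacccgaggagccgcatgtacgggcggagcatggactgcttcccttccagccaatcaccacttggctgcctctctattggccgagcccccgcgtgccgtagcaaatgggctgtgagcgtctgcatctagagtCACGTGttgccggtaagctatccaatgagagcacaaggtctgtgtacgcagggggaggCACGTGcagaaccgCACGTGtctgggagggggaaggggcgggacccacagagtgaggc
Per1 (chr11:69098699-69098948, plus strand): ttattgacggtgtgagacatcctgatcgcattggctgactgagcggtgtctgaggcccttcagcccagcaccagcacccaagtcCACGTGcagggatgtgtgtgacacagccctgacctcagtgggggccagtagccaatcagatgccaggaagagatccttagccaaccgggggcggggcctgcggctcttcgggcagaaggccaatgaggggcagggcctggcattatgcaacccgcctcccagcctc
Nfil3 (chr13:52981040-52981289, minus strand): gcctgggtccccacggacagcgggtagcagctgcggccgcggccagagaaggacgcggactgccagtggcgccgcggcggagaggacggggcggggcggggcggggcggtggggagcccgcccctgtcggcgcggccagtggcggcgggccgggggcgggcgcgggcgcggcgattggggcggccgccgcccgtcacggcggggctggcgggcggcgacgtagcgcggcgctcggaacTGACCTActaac
Arntl (chr7:113207529-113207558, plus strand): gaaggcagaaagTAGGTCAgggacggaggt

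Arntl (chr7:113207465-113314126), which encodes BMAL1, read 37.8, 35.7 and 52.4 in old and 8.72, 14.2 and 9.85 in young hearts, the highest young heart below every old one (log2 fold change 1.90 ± 0.29 (SE), adjusted p = 0.000401). Clock, the partner of BMAL1, read 677, 633 and 755 in old and 433, 464 and 465 in young hearts (log2 fold change 0.60 ± 0.11 (SE), adjusted p = 0.00139). Their relatives did not pass the test, with a log2 fold change of -0.09 ± 0.19 (SE) for Npas2 and -0.49 ± 0.19 for Arntl2. Among repressors, Per3, whose window holds 2 D-boxes, read 847, 865 and 817 in old and 1222, 1217 and 1339.6 in young hearts (log2 fold change -0.58 ± 0.07 (SE), adjusted p = 5.77e-05). Ciart, a repressor of CLOCK and BMAL1 with 3 E-boxes in its window, read 214, 193 and 183 against 318, 293 and 261 (log2 fold change -0.57 ± 0.12 (SE), adjusted p = 0.00483). Per1 read 983, 948 and 1071 in old and 1293, 1324 and 1518 in young hearts (log2 fold change -0.46 ± 0.12 (SE), adjusted p = 0.0284). All 3 old hearts were below all 3 young ones in each of these 3 genes. Without any 1 heart but young 1 the call of Per1 was lost, at adjusted p from 0.0505 to 0.137 and log2 fold changes from -0.39 to -0.51. Per2 (log2 fold change -0.31 ± 0.13 (SE)), Cry1 (-0.19 ± 0.10) and Cry2 (-0.04 ± 0.07) were not called, and Cry2 had the opposite sign without old 3 (log2 fold change 0.0026). Per2 was called in the edgeR and DESeq2 fits on the 6 hearts alone (adjusted p down to 0.00612).

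None of the receptors that repress or activate Bmal1 was called. Nr1d1, which encodes REV-ERBα, read 779, 898 and 751 in old and 937, 697 and 769.5 in young hearts, which overlap (log2 fold change 0.02 ± 0.13 (SE)). Nr1d2, which encodes REV-ERBβ, read 1629, 1529 and 1649.6 against 1598, 1570.3 and 1614 (0.01 ± 0.10). The signs of both changed when single hearts were left out, and neither value was beyond the spread between hearts. Rora, an activator of Bmal1, was not called either (log2 fold change 0.18 ± 0.10). In the D-box loop, the repressor Nfil3 read 141, 178 and 145 in old and 73, 112 and 89.9 in young hearts (log2 fold change 0.76 ± 0.19 (SE), adjusted p = 0.021), while the activator Hlf read 849, 859 and 786 against 1188, 1008 and 1021 (log2 fold change -0.37 ± 0.08 (SE), adjusted p = 0.0121). Bhlhe41, a repressor of the DEC family, read 415, 382 and 338 against 506, 472 and 447 (log2 fold change -0.33 ± 0.09 (SE), adjusted p = 0.0302). These 3 calls depended on single hearts. Nfil3 lost it without old 2, young 1 or young 3 (log2 fold change from 0.61 to 0.74, adjusted p from 0.0734 to 0.113). Hlf lost it without old 3 or young 1 (-0.33 and -0.29, adjusted p 0.0668 and 0.0813), and Bhlhe41 without old 2, old 3, young 1 or young 2 (from -0.34 to -0.26, adjusted p from 0.0768 to 0.161). Dbp stood at the threshold, with 807, 734 and 721 in old and 1071, 864 and 905 in young hearts that do not overlap (log2 fold change -0.33 ± 0.10 (SE), adjusted p = 0.0505), and was called in 6 alternatives (lowest adjusted p 0.00859), among them the fit without young 2 (0.0493). Tef (log2 fold change -0.23 ± 0.10) and Bhlhe40 (-0.15 ± 0.11) were not called, although Tef was in both fits on the 6 hearts alone (adjusted p down to 0.0049). At 1 time of day a shift of phase and a change of amplitude cannot be told apart.

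**Figure D2:**
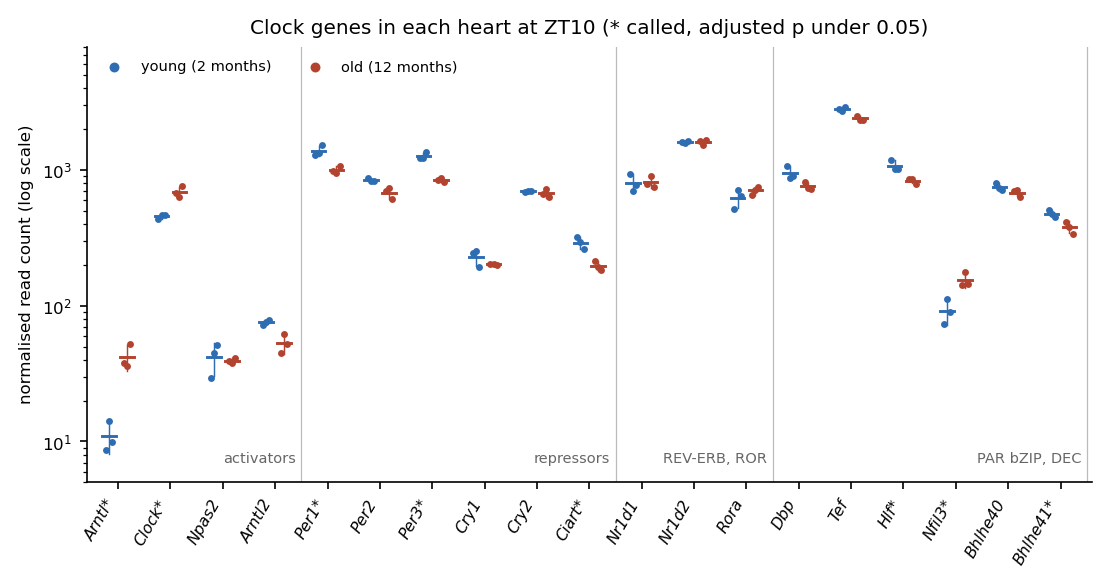
Normalised read counts (log scale) of 19 clock genes in each young (blue) and old (red) heart at ZT10, with the mean (short line) and SD (vertical line) of 3 hearts and an asterisk on genes called. The red points of Arntl, Clock and Nfil3 lie above the blue ones, those of Per1, Per3, Ciart, Hlf and Bhlhe41 below them, and those of Nr1d1 and Nr1d2 overlap.

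Some genes of innate immunity were higher in old hearts. Of 17 complement and acute phase genes tested, 5 were higher and 0 lower (median log2 fold change 0.29, against -0.0012 over all genes tested), and of 25 macrophage markers 7 were higher and 0 lower (median 0.24), beside 2.95% of all genes called higher. C3, the central protein of complement, read 2596, 2633 and 2549.6 in old and 1139.7, 1288 and 1399 in young hearts (log2 fold change 1.02 ± 0.10 (SE), adjusted p = 1.61e-06). C4b, which acts just before it, read 362, 362 and 297 against 127, 151 and 139 (log2 fold change 1.29 ± 0.15 (SE), adjusted p = 1.53e-05). No old value of these genes came near a young one. The proteases C1ra (log2 fold change 0.54) and C1s1 (0.44) rose by less, and the 5 complement calls held in each fit that left out 1 heart. Complement RNA summed over the list was 7897 to 8194 in old and 5629 to 5882 in young hearts. Among macrophage markers, Adgre1, the gene of the F4/80 antigen, read 162, 189 and 154 in old and 110.0, 115 and 119 in young hearts (log2 fold change 0.56 ± 0.10 (SE), adjusted p = 0.00142). Gpnmb, which marks lipid-laden macrophages, read 32, 43.3 and 42.2 against 12, 16.3 and 12.3 (log2 fold change 1.52 ± 0.34 (SE), adjusted p = 0.0103), and the lysozyme gene Lyz2 759, 784 and 770.1 against 619, 610.4 and 638 (log2 fold change 0.31 ± 0.07 (SE), adjusted p = 0.0109). The summed level of the 25 markers was 5778 to 6016 in old and 4849 to 5220 in young hearts, and the part of cell number in it was not tested. Cd163, a marker of resident macrophages, rose by a log2 fold change of 0.54 (adjusted p = 0.0148; without old 2 or young 3, 0.46 and 0.49, adjusted p 0.0838 and 0.0766). F13a1 (log2 fold change 0.37, adjusted p = 0.0111) lost the call without old 1 or young 1 (0.34 and 0.33, adjusted p 0.0503 and 0.0618), and Lgals3 (1.29, adjusted p = 0.00753) without old 3 (1.05, adjusted p 0.056). The list did not rise as a whole, with 18 of the 25 markers above 0 and 7 below. Csf1r (log2 fold change -0.0013) and Cd68 (0.07) were level, and Timd4 (-0.38), Cx3cr1 (-0.49) and Trem2 (-0.38) were below 0, none of them called.

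Csf1, the growth factor of macrophages, went the other way, with 605, 645 and 505 in old and 941, 869 and 799 in young hearts (log2 fold change -0.57 ± 0.11 (SE), adjusted p = 0.00355). It was the 1 gene lower among 23 cytokines and chemokines, of which 3 were higher (17.4% called, against 5.87% of all genes tested). H2-T22, a class I molecule, read 230.0, 306 and 235 against 165, 166 and 164 (log2 fold change 0.65 ± 0.10 (SE), adjusted p = 0.00065). Reads mapping alike to its paralogs were removed as multimapping, so its counts are uncertain. Of 34 interferon response genes 0 were called (6 at an unadjusted p under 0.05, median log2 fold change 0.14), as were 0 of 8 class II genes (2 at an unadjusted p under 0.05). Over all genes tested, 3049 of 15443 had an unadjusted p under 0.05. Of 11 B and plasma cell genes tested, the 2 called were antibody genes. Beside Ighg2c, Igha was higher, with 113, 170.2 and 126 against 44.7, 36.6 and 66.5 (log2 fold change 1.50, adjusted p = 0.0432), but it lost the call without any 1 of the 6 hearts (log2 fold change from 1.30 to 1.76, adjusted p from 0.063 to 0.16). The B cell marker Cd79a (2.29, 1.88 and 3.42 in old and 3.27, 3.05 and 13.5 in young hearts) held few reads in every heart, and 0 of 7 T and NK cell markers were called (0 at an unadjusted p under 0.05).

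**Figure D3:**
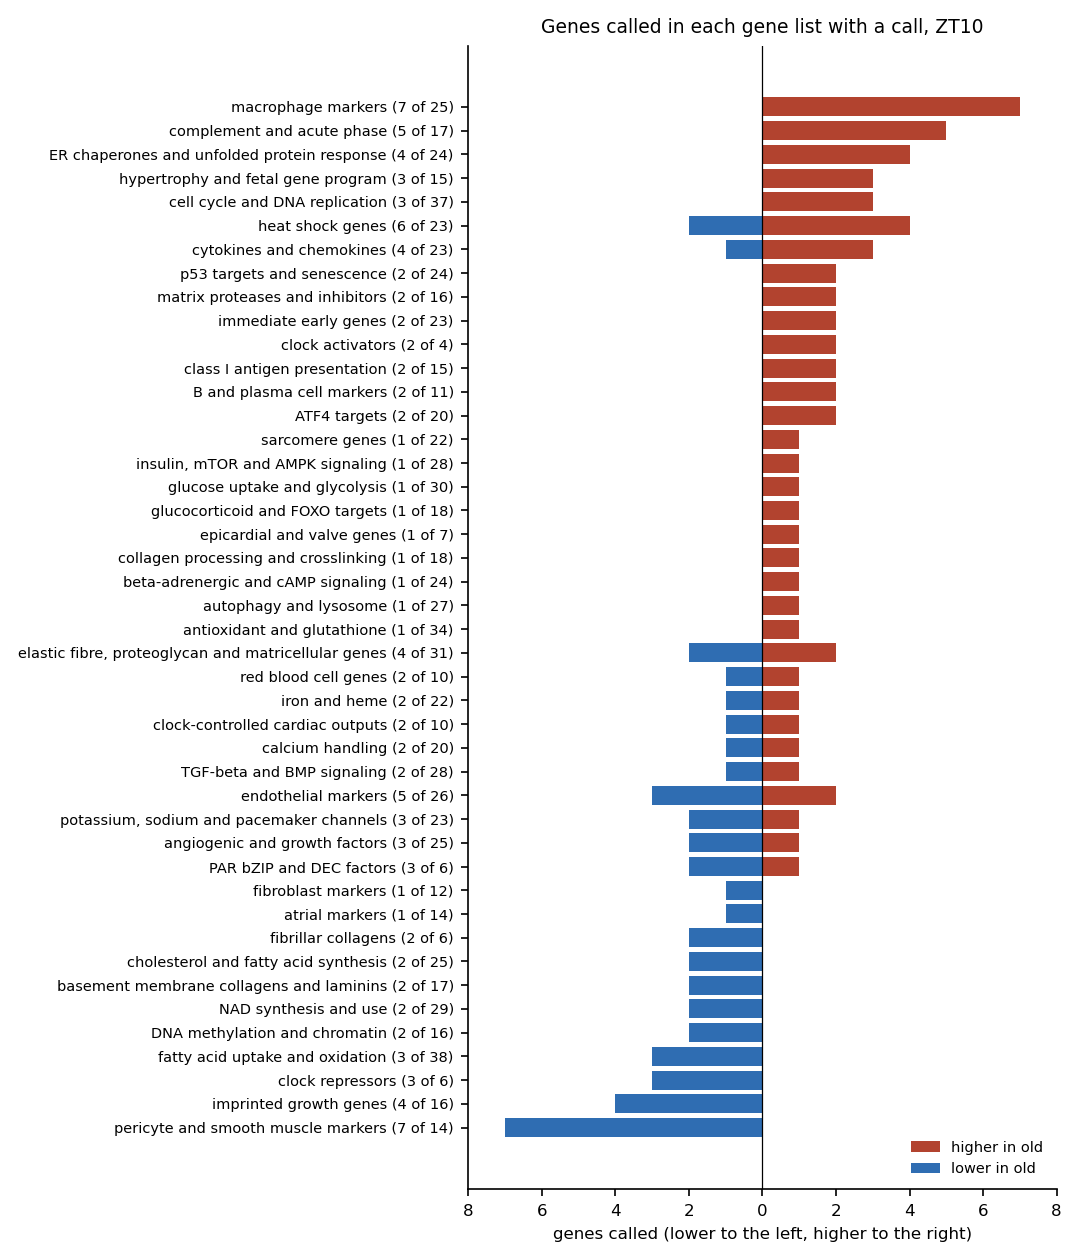
Number of genes called lower (blue, to the left) and higher (red, to the right) in old hearts at ZT10, for each gene list with a call and with the number called of the number tested in brackets. Macrophage markers (7 higher) and complement genes (5 higher) stand at the top and pericyte and smooth muscle markers (7 lower) at the bottom.

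Protein folding genes were higher in old hearts at ZT10 in part. Of 24 ER chaperones and genes of the unfolded protein response, 4 were higher and 0 lower, and 21 of the 24 had a positive log2 fold change (median 0.17). Of 23 heat shock genes 4 were higher and 2 lower. The share of all genes tested was 2.95% higher and 2.92% lower. Hsp90aa1, the inducible HSP90, read 688, 617 and 648 in old and 483, 422 and 419.9 in young hearts (log2 fold change 0.56 ± 0.09 (SE), adjusted p = 0.000673). Hsph1, its HSP110 partner of HSP70, read 866, 881 and 749.6 against 721, 494 and 531 (log2 fold change 0.52 ± 0.10 (SE), adjusted p = 0.00444), and the ER chaperone Hyou1 714, 697 and 677 against 559, 470.3 and 575 (log2 fold change 0.38 ± 0.08 (SE), adjusted p = 0.00365). In each of the 3 genes every old heart was above every young one, though Hsph1 lost the call in DESeq2 on the 6 hearts alone (adjusted p = 0.0856). Sdf2l1, an ER chaperone subunit, read 66.4, 94 and 69.5 against 53.4, 38.6 and 34.5 (log2 fold change 0.87 ± 0.20 (SE), adjusted p = 0.0108), and lost the call without old 2, young 2 or young 3 (log2 fold change from 0.68 to 0.80, adjusted p from 0.0563 to 0.0839). The secreted ER protein Manf rose by a log2 fold change of 0.36 (adjusted p = 0.0366) and lost it without any 1 heart but young 1 (from 0.25 to 0.41, adjusted p from 0.0548 to 0.205). The 2 heat shock list members that fell are induced by cold. Cirbp read 443, 434 and 395 in old and 511, 528 and 596 in young hearts (log2 fold change -0.36 ± 0.09 (SE), adjusted p = 0.0243) and lost the call without old 2, old 3, young 2 or young 3 (from -0.38 to -0.29, adjusted p from 0.0523 to 0.133). Rbm3 fell by 0.36 on the log2 scale (adjusted p = 0.0121), which was lost without old 3 or young 2 (-0.27 and -0.34, adjusted p 0.0864 and 0.0535).

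Stress and growth genes were called at shares close to or somewhat above the 5.87% of all genes, 8.7% of immediate early genes, 8.33% of p53 targets and senescence genes and 8.11% of cell cycle genes. Maff, a small MAF transcription factor, read 132, 153 and 139 in old and 70.8, 86.3 and 83.7 in young hearts (log2 fold change 0.82 ± 0.18 (SE), adjusted p = 0.00676). It was 1 of 2 called among 23 immediate early genes, both higher. Cdkn1a, the p53 target p21 that arrests the cell cycle, read 283, 221 and 268 against 110.0, 126 and 135 (log2 fold change 1.05 ± 0.25 (SE), adjusted p = 0.0142), and Gdf15, a stress hormone, 20.6, 16 and 33 against 10.9, 6.09 and 3.69 (log2 fold change 1.70 ± 0.46 (SE), adjusted p = 0.0319). All old hearts were higher in both genes. Cdkn1a lost the call without old 1 or young 1 (log2 fold change 0.98 and 0.97, adjusted p 0.0594 and 0.062) and Gdf15 without old 1, old 3, young 2 or young 3 (from 1.36 to 1.76, adjusted p from 0.06 to 0.161). Of the G1 cyclins 2 rose, Ccnd1 from a mean of 490.5 ± 33.7 to 717 ± 56.1 (SD, n = 3; log2 fold change 0.54, adjusted p = 0.00256) and Ccnd2 from 1477 ± 91.4 to 1927 ± 53.7 (0.38, adjusted p = 0.00467). Mki67, which marks cycling cells, read 121, 125 and 208 against 52.3, 109.7 and 81.3 (log2 fold change 0.89, adjusted p = 0.0272) and lost the call without old 3, young 1 or young 3 (from 0.60 to 0.88, adjusted p from 0.0867 to 0.189). Of 37 cell cycle genes these 3 were higher and 0 lower. A positive log2 fold change was found in 29 of the 37 and a negative one in 8 (median 0.30). The summed level of the list was 5564 to 6013 in old and 4618 to 4890 in young hearts, a sum in which Ccnd2 weighs much.

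Among cardiomyocyte genes, 3 of 15 of the hypertrophy and fetal gene program were called, all higher, Nppb and Rcan1 among them, and 1 of 22 sarcomere genes (4.55%, near the 5.87% of all genes). Of 42 respiratory chain and ATP synthase subunits, 30 proteasome subunits and 43 cytosolic ribosomal proteins 0 were called, and 0 had an unadjusted p under 0.05. Summed sarcomere RNA was 97200 to 111200 in old and 95960 to 105700 in young hearts. The sarcomere gene called was Myot, which encodes the Z-disc protein myotilin. It read 971, 679.9 and 704 in old and 292, 281 and 308 in young hearts, every old heart above every young one (log2 fold change 1.42 ± 0.14 (SE), adjusted p = 1.61e-06). Rcan1, a target and inhibitor of calcineurin, read 934, 770.2 and 819 against 558, 546 and 605 (log2 fold change 0.56 ± 0.11 (SE), adjusted p = 0.00324). Nppb, which encodes the natriuretic peptide BNP and rises in the stretched ventricle, read 561, 473 and 527 in old and 372, 186 and 150.2 in young hearts, young 1 the highest of these (log2 fold change 1.13 ± 0.22 (SE), adjusted p = 0.0032). Nppa, which encodes ANP, read 352, 309 and 419 against 368, 216 and 191, groups that overlap, and was not called (log2 fold change 0.47 ± 0.20 (SE), adjusted p = 0.179).

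Atrial genes, whose examples here were chosen after their values were seen, varied between hearts of 1 age. Sln, the atrial regulator of the calcium pump, read 269, 244 and 373 in old and 264, 82.3 and 50.5 in young hearts. Myl4, the atrial essential myosin light chain, read 844, 767 and 1203 against 1034, 395 and 312, and Myl7, the atrial regulatory light chain, 683, 552 and 802 against 662, 307 and 299. Young 1 read like an old heart for these genes, and young 2 and young 3 lay below all others. The list was not uniform, with a positive log2 fold change in 8 of the 14 atrial markers and a negative one in 6. Nr2f2 read 200, 232 and 227 in old and 278, 253 and 257 in young hearts. Adora1 (log2 fold change -0.36), Nr2f1 (-0.35) and Tbx5 (-0.16) were below 0 as well. These markers were not called and stayed below 0 without young 1. Bmp10, made by right atrial myocytes, was read at 2.29, 327 and 2.28 in old and 1790.2, 25.4 and 2.46 in young hearts, high in young 1, lower in old 2 and near 0 in old 1, old 3 and young 3. The sum of the 14 atrial markers without Bmp10 was 4163 to 5779 in old hearts, 5448 in young 1, and 3103 and 2932 in young 2 and young 3. Of the 14 markers only Clcn1 was called with all 6 hearts, and without young 1 there were 8 (7 higher, among them Nppa with a log2 fold change of 0.81 and adjusted p = 0.0143). Nppb was called with and without that heart (log2 fold change 1.62 without young 1), and was lost in 1 fit, DESeq2 on the 6 hearts alone (adjusted p = 0.0719). Which part of the heart was taken is not given in the sources used here, and the part of atrial tissue in the natriuretic peptide and Bdh1 values was not tested.

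Of 23 potassium, sodium and pacemaker channel genes 1 was higher and 2 were lower. Over all genes tested, 2.95% were called higher and 2.92% lower, and with 3 calls the list is too small to rank against these shares. Hcn4, the pacemaker channel, read 142, 114 and 124 in old and 224, 239 and 229 in young hearts (log2 fold change -0.87 ± 0.12 (SE), adjusted p = 0.000178), and young 1, high in atrial genes, was level with the other young hearts. Clcn1, a chloride channel counted with the atrial markers and not among these 23, read 148, 132 and 125 against 265, 243 and 275 (log2 fold change -0.95 ± 0.16 (SE), adjusted p = 0.00108). Scn4b, a sodium channel subunit, was higher, with 1109, 1157 and 1029 against 803, 709 and 599.6 (log2 fold change 0.64 ± 0.15 (SE), adjusted p = 0.0134), and lost the call without old 2 or young 3 (log2 fold change 0.60 and 0.54, adjusted p 0.0557 and 0.0867). Casq1, the calsequestrin of fast skeletal muscle, read 120.1, 110.0 and 98 against 197, 228 and 188 (log2 fold change -0.90 ± 0.23 (SE), adjusted p = 0.0212). Its call was lost without old 2, old 3 or young 2 (from -0.91 to -0.82, adjusted p from 0.0686 to 0.0911). Of 9 skeletal muscle genes 0 were called (2 at an unadjusted p under 0.05, beside 3049 of 15443 over all genes tested).

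In the vessel wall, 7 of 14 pericyte and smooth muscle markers were lower in old hearts and 0 higher (median log2 fold change -0.34), against 2.92% of all genes called lower. Cspg4, the pericyte proteoglycan NG2, read 252, 291 and 235 in old and 404, 386 and 410.0 in young hearts (log2 fold change -0.62 ± 0.10 (SE), adjusted p = 0.000783). Pdgfrb, the receptor through which endothelial cells recruit pericytes, read 775, 795 and 695 against 935, 1012 and 1005 (log2 fold change -0.38 ± 0.07 (SE), adjusted p = 0.00142), and Acta2, smooth muscle actin, 675, 654 and 606 against 867, 794 and 813 (log2 fold change -0.35 ± 0.07 (SE), adjusted p = 0.00607). Every old heart was below every young one in these 3, which held their call in each fit that left out 1 heart. Between 3 and 6 of the 14 were called in those fits. Notch3, a receptor of mural cells, fell by 0.37 on the log2 scale (adjusted p = 0.00744; without old 3, log2 fold change -0.31 and adjusted p 0.055), and Myh11, smooth muscle myosin, by 0.51 (adjusted p = 0.046), lost without any 1 heart but young 2 (log2 fold change from -0.57 to -0.42, adjusted p from 0.077 to 0.2). The summed level of the list overlapped between the ages (14320 to 15710 in old, 14970 to 16830 in young hearts). Its members with the most reads, Abcc9, Des and the pericyte marker Rgs5, were level (log2 fold change 0.06, -0.006 and 0.007) and weigh most in that sum. Mylk was level too (-0.04). Of 26 endothelial markers 2 were higher and 3 lower (19.2% called, against 5.87% of all genes tested). Their log2 fold changes were positive in 12 and negative in 14, and 0 of the 5 calls held in each fit that left out 1 heart. Aplnr, the apelin receptor, read 334, 314 and 343 against 503, 459 and 611 (log2 fold change -0.66 ± 0.16 (SE), adjusted p = 0.0148) and lost the call without old 2 or young 3 (-0.63 and -0.54, adjusted p 0.0659 and 0.0954). Among 25 angiogenic and growth factors, Angpt2, which loosens vessels, was higher with 74.4, 68.7 and 77.5 against 42.5, 38.6 and 54.2 (log2 fold change 0.71 ± 0.15 (SE), adjusted p = 0.00637), a call lost in DESeq2 on the 6 hearts alone (adjusted p = 0.0744). Fgf9 read 75.5, 103 and 105 against 142, 149 and 143 (log2 fold change -0.61, adjusted p = 0.00189) and Egf 97.3, 76.2 and 98 against 197, 167 and 131 (-0.88, adjusted p = 0.00628), both lower in all 3 old hearts.

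Matrix genes went both ways. Fibrillar collagen RNA was lower in sum (5032 to 5861 in old and 6231 to 7085 in young hearts), with 16 of 17 basement membrane genes and 5 of 6 fibrillar collagens below 0. Yet only 2 of each list were called, 11.8% and 33.3% of them, against 5.87% of all genes tested. None of those calls held in every fit that left out 1 heart, and 0 of either list were called with a GC offset. The sum over other collagens overlapped (3893 to 4397 in old and 4063 to 4703 in young hearts). Col1a1, the main chain of fibrillar collagen, read 1079, 898 and 1106 in old and 1280.2, 1395 and 1288 in young hearts (log2 fold change -0.36 ± 0.09 (SE), adjusted p = 0.0203) and lost the call with the GC offset and without old 2 or young 2 (-0.27 and -0.32, adjusted p 0.127 and 0.0887). Pi16, a marker of adventitial fibroblasts, read 489, 479.6 and 432 against 594, 583 and 707 (log2 fold change -0.42 ± 0.08 (SE), adjusted p = 0.00278), the 1 fibroblast marker called of 12. Efemp1, the elastic fibre protein fibulin 3, was higher instead, with 149.9, 172 and 172 against 50.1, 73.1 and 92.3 (log2 fold change 1.21 ± 0.16 (SE), adjusted p = 0.000106). So were 2 matrix proteases. Mmp9 read 29.7, 34.8 and 28.5 against 9.81, 9.14 and 8.62 (log2 fold change 1.75 ± 0.35 (SE), adjusted p = 0.00427) and Mmp3 50.3, 48 and 54.7 against 22.9, 13.2 and 8.62 (log2 fold change 1.75 ± 0.34 (SE), adjusted p = 0.00324), low counts that did not overlap. P4ha1, which hydroxylates collagen prolines in the ER, read 872, 827 and 738 against 625, 584 and 529 (log2 fold change 0.49 ± 0.08 (SE), adjusted p = 0.000481).

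**Figure D4:**
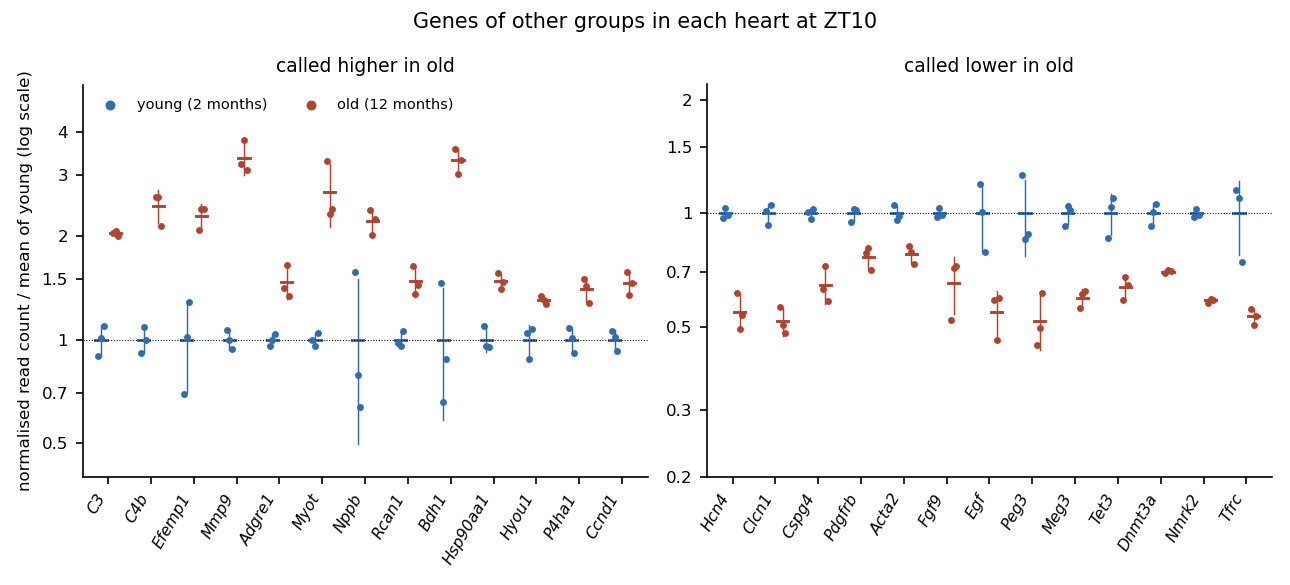
Normalised read counts of 26 genes in each heart at ZT10 divided by the mean of the young hearts (log scale), with young hearts in blue, old in red, and the mean and SD of 3 hearts as lines. Old hearts lie above young ones for the genes on the left, where young 1 is the high blue point of Nppb and Bdh1, and below them for the genes on the right.

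Among fuel genes, Bdh1, which oxidises the ketone body 3-hydroxybutyrate, was higher in old hearts. It read 1573, 1335 and 1467 in old and 644, 289 and 388 in young hearts, young 1 again the highest of the young (log2 fold change 1.73 ± 0.21 (SE), adjusted p = 3.88e-05). Every old heart lay above every young one. Antisense or neighbouring RNAs overlap Bdh1, Ciart, Tet3, Notch3 and Nmrk2. The study's methods left reads that overlap several genes out of the counts. The strand setting is not given in the sources used here, so the counts of these genes are uncertain in part. Cpt1a, the liver form of the carnitine palmitoyltransferase that admits fatty acids to mitochondria, read 719, 827 and 782 against 948, 1151 and 979 (log2 fold change -0.40 ± 0.10 (SE), adjusted p = 0.0148) and lost the call without old 1 or young 2 (-0.35 and -0.31, adjusted p 0.0791 and 0.0976). Of 38 genes of fatty acid uptake and oxidation 3 were lower and 0 higher, and of 30 of glucose uptake and glycolysis 1 was higher and 0 lower. These shares, 7.89% and 3.33% called, were near the 5.87% of all genes tested. Srebf1, a driver of lipid synthesis, read 310.1, 330.1 and 349.7 against 429, 413 and 442 (log2 fold change -0.37 ± 0.08 (SE), adjusted p = 0.00714). It was 1 of 2 called among 25 cholesterol and fatty acid synthesis genes, both lower (8.0% called, also near the share of all genes). Irs1, an adaptor of the insulin receptor, was higher by a log2 fold change of 0.76 (adjusted p = 0.017), lost without old 3 or young 1 (0.61 and 0.68, adjusted p 0.105 and 0.0779).

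Tfrc, the transferrin receptor through which cells take up iron, read 632, 573 and 606 in old and 1309, 1245 and 843 in young hearts (log2 fold change -0.91 ± 0.22 (SE), adjusted p = 0.0165), and lost the call without old 2, old 3, young 1 or young 2 (from -0.92 to -0.80, adjusted p from 0.0557 to 0.0741). Alas2, the first enzyme of heme synthesis in red blood cell precursors, was higher, with 173, 201 and 231 against 122, 67 and 91.1 (log2 fold change 1.12 ± 0.19 (SE), adjusted p = 0.00118). The globin genes were not called but were mostly higher in old hearts as well. Hbb-bt, an adult beta globin, read 214, 181 and 207 in old and 178, 106 and 135 in young hearts, which do not overlap (log2 fold change 0.52, adjusted p = 0.0625). The ages did not overlap for Hba-a1 and Hba-a2 either, while Hbb-bs read 366, 297 and 362 against 330.1, 237 and 308, values that overlap. Hba-a1 and Hba-a2 are near-identical to each other, as are Hbb-bs and Hbb-bt, so their counts are uncertain. Of 10 red blood cell genes tested 9 had a positive log2 fold change (median 0.37). An unadjusted p under 0.05 was found for 7 of the 10, beside 3049 of 15443 over all genes tested. The part of blood in the Alas2 value was not tested. Of 29 genes of NAD+ synthesis and use 2 were lower and 0 higher, 6.9% called and so close to the 5.87% of all genes. Nmrk2, the kinase that turns NR into the NAD+ precursor NMN in muscle, read 108, 110.0 and 109 in old and 182, 191 and 183 in young hearts, the 3 hearts of each age nearly level (log2 fold change -0.77 ± 0.16 (SE), adjusted p = 0.00643). Cd38, which degrades NAD+, was lower (log2 fold change -0.39, adjusted p = 0.0178), lost without old 1, old 2, young 1 or young 3 (from -0.38 to -0.35, adjusted p from 0.0644 to 0.0841). The deacetylase Sirt1 read 331, 302 and 321 against 253, 297 and 281 and was not called (log2 fold change 0.20 ± 0.10 (SE)). Nt5c1a, an AMP and NMN nucleotidase, was not called either (0.40 ± 0.14, adjusted p = 0.0946), but was called in 3 alternatives (lowest adjusted p 0.0395), among them the fit without young 3 (0.54, adjusted p 0.0462).

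Imprinted genes, which are expressed from 1 parental copy and fall in many organs after early growth, were lower in 4 of 16 and higher in 0. Peg3, a paternally expressed zinc finger gene, read 175, 195 and 240.4 in old and 495, 335 and 345 in young hearts (log2 fold change -0.95 ± 0.17 (SE), adjusted p = 0.00136). Meg3, a maternally expressed long RNA of the Dlk1 locus on chromosome 12, read 153, 166 and 169.7 against 253, 286 and 279 (log2 fold change -0.74 ± 0.16 (SE), adjusted p = 0.006), and Rian, the next long RNA of that locus, 91.5, 88.4 and 88.9 against 147, 119.9 and 145 (log2 fold change -0.61 ± 0.12 (SE), adjusted p = 0.0027). No old heart reached a young one in any of the 3. Of 16 genes of DNA methylation and chromatin 2 were lower and 0 higher (12.5% called, against the same 5.87%). Of these 16, 15 had a negative log2 fold change (median -0.11). Dnmt3a, which sets new DNA methylation, read 754, 766 and 761 in old and 1005, 1098 and 1152 in young hearts (log2 fold change -0.51 ± 0.08 (SE), adjusted p = 0.000549). Tet3, which oxidises methylcytosine, read 332, 383 and 363 against 484, 587 and 618 (log2 fold change -0.64 ± 0.09 (SE), adjusted p = 0.000145). The histone methyltransferase Kmt2d, outside the list, was lower too, with 739, 839.8 and 755 against 1352, 1204 and 1416 (log2 fold change -0.76 ± 0.13 (SE), adjusted p = 0.0014).

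The same age difference was then read in other mice at ZT22. There 2183 genes were called (14.1% of those tested), and of the 906 ZT10 genes 309 were called as well (34.1%). They split into 220 with the same direction (24.3% of the ZT10 calls and 10.1% of the ZT22 calls) and 89 with the opposite direction (9.82% and 4.08%). Of the 220, 174 were higher and 46 lower in old hearts, and the absolute log2 fold change had a median of 0.77 at ZT10 and 0.78 at ZT22. The 89 were 48 that were higher at ZT10 and 41 that were lower, with smaller medians of 0.45 and 0.44. A difference of age effects between the times was called for 330 of the 906 (36.4%), against 6.89% of all genes tested, but the 906 were chosen at ZT10, so this share is not independent of that choice. It was called for all 89 of opposite direction and for 7 of the 220 of the same direction. Being called at both times with opposite signs all but fixes such a call, so the 89 add no separate evidence.

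Among the large rises at ZT10, those of Ano5, Cdh4, Ighg2c and Cpxm2 were called at ZT22 too, while Mmp3 (log2 fold change 0.37 at ZT22, adjusted p = 0.367) and Bdh1 (0.59, adjusted p = 0.0529) were not. The log2 fold change at ZT22 was 3.81 for Ano5, 3.54 for Cdh4, 3.32 for Ighg2c and 2.41 for Cpxm2. Cdh4 read 221, 189.9 and 257 in old and 17.4, 22.1 and 17.4 in young hearts at ZT22. All 5 complement genes were higher at both times, C3 at 2605, 2466 and 2664 in old and 1107, 1459.7 and 1074 in young hearts at ZT22. Of the 7 macrophage markers 5 were higher again. Among genes lower at both times were Ddc (log2 fold change -1.17 at ZT22), Slc38a1 (-1.46), Peg3 (-0.48), Rian (-0.60), Acta2 (-0.31) and Col1a1 (-0.53). Of the 7 pericyte and smooth muscle markers lower at ZT10, 2 were lower again at ZT22 and 1, Myh11, was higher (0.53, adjusted p = 0.0211), while Cspg4 (-0.11), Pdgfrb (-0.07) and Notch3 (-0.15) were among those not called.

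Some clock, protein folding, stress, cell cycle and fuel genes had the opposite direction at ZT22. At ZT22, when Arntl is high, it read 329, 393 and 409 in old and 629.8, 722 and 589.9 in young hearts, so old hearts had more of it at ZT10 and less at ZT22 (log2 fold change -0.77, adjusted p = 2.29e-05). Per3 read 276, 271 and 271 in old and 142, 119 and 156 in young hearts (0.98, adjusted p = 3.08e-06), the reverse of ZT10 as well. For both genes the range from ZT10 to ZT22 was narrower in old than in young hearts, and the difference of age effects was called (adjusted p = 1.72e-05 for Arntl and 5.87e-07 for Per3). Hyou1 read 709, 736 and 662 in old and 1231, 1235 and 1077 in young hearts at ZT22 (log2 fold change -0.75, adjusted p = 6.59e-07), and Hsp90aa1 565, 542 and 472 against 714, 832 and 783 (-0.57, adjusted p = 0.000165). All 4 ER chaperones and 4 of the 6 heat shock genes called at ZT10 were called in the opposite direction at ZT22. Cirbp was among them, with 444, 465 and 555 in old and 292, 215 and 232 in young hearts. Old hearts thus read more alike at ZT10 and ZT22 for Hyou1, from a lowest of 662 to a highest of 736 over the 6 old hearts, than young hearts did, from 470.3 to 1235. P4ha1 (log2 fold change -0.62 at ZT22), Rcan1 (-0.37) and Wnk4 (0.44) were also called in the opposite direction at ZT22. So were Cdkn1a (log2 fold change -0.71 at ZT22), Mki67 (-0.80), Maff (-0.68), Irs1 (-0.57) and Nfil3 (-0.85), which were higher in old hearts at ZT10, and Cpt1a (0.50), which was lower.

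**Figure D5:**
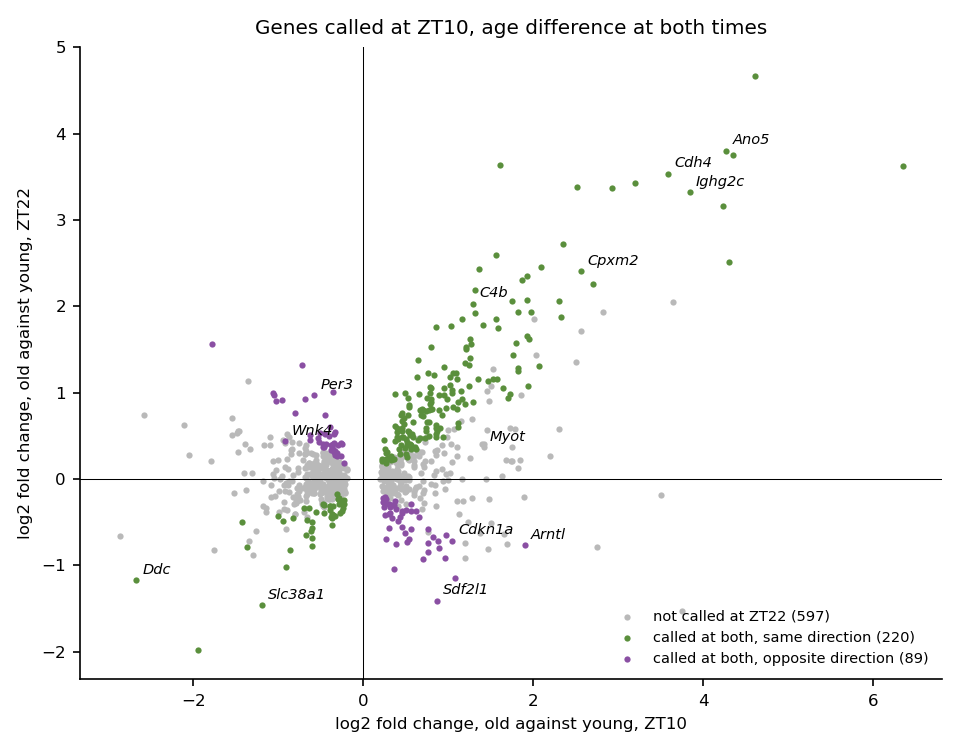
Each point is 1 of the 906 genes called at ZT10, with its log2 fold change, old against young, at ZT10 on the x axis and at ZT22, in other mice, on the y axis. Green points (220) were called at both times in the same direction, purple points (89) in opposite directions and grey points (597) at ZT10 only, and the green points reach the largest values.

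The old hearts given NR share the young hearts as their control, so their values are set side by side only. At ZT10 they read 12.9, 25.6 and 20.6 for Arntl, from within the young range to above it and below every old heart on water, and 160.3, 209.6 and 169 for Nmrk2, above every old heart on water. For C3 they read 1894, 1716 and 1924 and for Abat 462, 433 and 433, between the ages in both. They read near the old hearts on water for Per3 (891, 865 and 818), Cdh4 (176, 178 and 147) and Hyou1 (723, 725 and 692). For Cspg4 they read 336, 334 and 337, below every young heart and above every old heart on water.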

How the data were processed

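RNA of each heart was sequenced as stranded mRNA libraries, single-end at 72 bases per the study's methods. The authors trimmed reads (Trimmomatic 0.39), aligned them to mm10 (STAR 2.7.10a), removed duplicates (Picard 3.0.0) and multimapping, ribosomal and mitochondrial reads, and deposited counts per gene (featureCounts 2.0.4). Reads that overlapped more than 1 gene were left out of those counts. A second deposited table holds the same values divided by a DESeq2 1.36.0 size factor and rounded, a score used here only to check which table is raw. Removing duplicates from single-end reads can compress abundant genes; the named genes with the most reads per exonic base were Nppb (0.644), Lyz2 (0.634) and C3 (0.544).

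Counts of all 18 hearts were fitted with 1 mean per group (edgeR 4.0.16, R 4.3.3), TMM scaling and an average count over 5, which kept 15443 of 20764 genes. SE is the absolute log2 fold change over the square root of F. A gene was called at a Benjamini-Hochberg adjusted p under 0.05. The interaction was the age difference at ZT10 minus that at ZT22. Coordinates are from GENCODE M21 (GRCm38).

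Members and gene lists were chosen with earlier results of these data known. Named genes were called members of the lists, the 12 largest changes per direction at a mean count of at least 50, the 10 lowest p, the 5 largest differences in count per direction, and genes the study names. Cd79a, Hbb-bs, Hbb-bt, Hba-a1, Hba-a2 and the atrial genes other than Nppa and Clcn1 were chosen after their values were seen. So were Csf1r, Cd68, Timd4, Cx3cr1, Trem2, Abcc9, Des, Rgs5 and Mylk. Alternatives were DESeq2 1.42.0, other sets of hearts, scaling, filters, a replicate block, library size as a covariate, each heart left out, and a GC offset added after the data were seen. Replicates of an age differed by more than sampling noise (chi-square per gene 1.65 to 2.13, and 3.45 to 4.26 between ages), so none was counted as a duplicate. HL-1 cultures were not used here. Some members of the lists are counted but not reported by name here.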

Additional observations from a re-analysis of the deposited data

Results flagged for a closer look

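The age difference was not the same at ZT10 and ZT22 for 44 of the 97 genes tested and named above, by the interaction term of edgeR's quasi-likelihood fit (adjusted p under 0.05 over all genes, which called 6.89% of those tested). The 97 leave out the genes chosen after their values were seen. Of the 44, 18 were called at both times in opposite directions. Most were chosen for their difference at ZT10, so their share is not independent of that choice. Each value below is the log2 fold change, old against young, at ZT10 minus that at ZT22, positive where old hearts stood relatively higher at ZT10.

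Among clock genes it was 2.67 for Arntl, 1.60 for Nfil3, 0.75 for Clock, 0.51 for Cry1, -1.55 for Per3, -1.40 for Dbp, -0.79 for Nr1d2, -0.64 for Per1, -0.58 for Bhlhe41, -0.57 for Tef and -0.44 for Hlf.

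Among protein folding, stress and cell cycle genes it was 2.44 for Gdf15, 2.27 for Sdf2l1, 1.76 for Cdkn1a, 1.69 for Mki67, 1.49 for Maff, 1.40 for Manf, 1.24 for Hsph1, 1.14 for Hyou1, 1.13 for Hsp90aa1 and -1.37 for Cirbp.

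Among cardiomyocyte and ion transport genes it was 1.53 for Nppb, 1.05 for Myot, 0.93 for Rcan1, -1.41 for Clcn1, -1.36 for Wnk4, -0.74 for Scn4b and -0.73 for Hcn4.

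Among immune, vessel, matrix and growth factor genes it was 1.11 for P4ha1, 0.84 for Angpt2, -0.74 for C4b, -0.70 for Csf1, -0.62 for F13a1, -1.36 for Egf, -1.04 for Myh11, -0.92 for Frem2 and -0.51 for Cspg4.

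Among metabolic and remaining genes it was 1.33 for Irs1, 1.14 for Bdh1, 0.77 for Abat, -1.51 for Ddc, -0.90 for Cpt1a, -0.56 for Tet3 and -0.48 for Srebf1.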

How the results depend on the processing

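The number called at ZT10 (906) stayed within 1.5 times under DESeq2 on all 18 hearts (724) or on the 6 compared (730), edgeR without NR hearts (813), DESeq2 size factors (900), no filter (784), filterByExpr (927) and the GC offset added after the data were seen (887). It rose to 1479 (741 higher, 738 lower) in edgeR on the 6 hearts alone and to 1423 (692 higher, 731 lower) with library size as a covariate, and fell to 478 to 614 (241 to 316 higher, 232 to 298 lower) when 1 heart was left out, which leaves fewer samples. Every called gene that was tested kept its sign in each of these fits. Of the 97 named genes 83 were called, 58 of them in each fit leaving out 1 heart and 55 under every setting. DESeq2 on all hearts lost the calls of Bhlhe41, Casq1, Igha and Manf, DESeq2 on the 6 hearts those of Angpt2, Cd38, Hsph1, Manf, Mki67 and Nppb, edgeR without NR hearts those of Manf and Myh11, no filter that of Myh11 and the GC offset that of Col1a1. Values of uncalled genes that changed sign when 1 heart was left out ran from -0.11 to 0.0026 for Cry2, -0.29 to 0.069 for Npas2, -0.076 to 0.15 for Nr1d1 and -0.014 to 0.041 for Nr1d2, which was also -0.0285 with the GC offset, and the cause was not tested.

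The replicate number as a block gave 1023 calls and lost no named call. Deviations of same-numbered old and young hearts hardly correlated (0.028, 0.023 and -0.026), and not every heart correlated best with its own number, so the numbers were not taken as pairs. What size of change these depths allow was not tested.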
